A study of Mus musculus with 6 samples.

Results

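The 10 genes described here encode calcineurin, the transcription factors it controls and a group of calmodulin-dependent kinases. They were taken by gene symbol from a table of 16547 genes measured in mouse pancreatic islets: Ppp3ca, Ppp3cb, Ppp3r1, Rcan1, Rcan2, Nfatc1, Nfatc3, Camk2b, Camk2d and Camk1d. RNA was sequenced from islets of C57BL/6 mice aged 11 to 12 weeks, in 3 libraries of a knockout group (bKO, genotype BetaKcnj11 -/-, in which Kcnj11 is deleted in beta cells) and 3 of a control group (WT, genotype Kcnj11 fl/fl, which carries the floxed gene). Islets of both groups were hand-picked after collagenase digestion and kept in RPMI medium for 2 days before RNA was extracted. The sources used here give neither the promoter that drives Cre in the knockout nor whether the controls carry Cre. Values are FPKM, fragments scaled by transcript length and by the mapped fragments of the library. An islet is a mixture of endocrine, vascular and immune cells, so that in these libraries fewer cells of a type and less RNA per cell cannot be told apart.

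Calcineurin is a protein phosphatase switched on by calcium and calmodulin. It is built from a catalytic A subunit (Ppp3ca, Ppp3cb or Ppp3cc) and a regulatory B subunit (here Ppp3r1). It strips phosphate from NFATc transcription factors, which then enter the nucleus. Regulators of calcineurin (Rcan genes) bind and restrain the enzyme, and a short form of Rcan1 is itself induced by NFAT, which closes a feedback loop. The CaM kinases read the same calmodulin signal and phosphorylate proteins instead. In the beta cell the opening of calcium channels is normally held in check by the ATP-sensitive potassium channel, whose pore, Kir6.2, is the product of Kcnj11. The comparison asks which of these calcium-reading transcripts differ between islets with and without that pore in beta cells. RNA levels do not measure the activity of the enzymes.

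The targeted gene was low in every library of the knockout group. Kcnj11 was at 3.45, 5.31 and 3.51 FPKM in bKO replicates 1, 2 and 3, against 19.7, 24.7 and 25.4 FPKM in WT replicates 1, 2 and 3 (log2 difference -2.35, limma adjusted p = 0.025). That call was lost without bKO replicate 1 (limma adjusted p = 0.228), bKO replicate 3 (0.174), WT replicate 2 (0.0764) or WT replicate 3 (0.0957), with the replicate block (0.0788) and with bKO replicates 1 and 3 averaged (0.214), while the log2 difference lay between -2.6 and -2.26 over all alternatives. Steps between low FPKM values put the depth at 26000000 to 39400000 fragments in bKO libraries and 23100000 to 26800000 in WT libraries. The summed FPKM of 10 beta cell markers was high in every library, between 216844 and 293514 in bKO and between 271172 and 359591 in WT. Of these 10 markers, 4 lay lower in every bKO library than in every WT library on deposited FPKM, as 6.48% of all genes tested did. Replicates 1 and 3 of bKO were closer to each other (Pearson r across genes 0.9986) than any of the 14 other pairs (0.9815 to 0.9957), and their mean squared difference was 1.7 times counting error, against 17.1 to 167 times for the other pairs. Acinar markers, which report exocrine tissue among the picked islets, summed to 11436 to 25805 FPKM in bKO libraries and to 1308 FPKM in WT replicate 1, with 16309 and 19621 in WT replicates 2 and 3. Whether each library is a different mouse is not stated in the labels, so that p-values measure the spread between these libraries, which may be technical.

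All 10 genes were above 0 FPKM in all 6 libraries, and none was called different between bKO and WT islets. In limma, 0 of 10 reached an adjusted p below 0.05, where 0.194% of the 15962 genes tested did (0.0626% higher and 0.132% lower in bKO). These calls over the whole table were 31 genes, and 0 when bKO replicate 1 or bKO replicate 3 was left out or the pair was averaged. At an unadjusted p below 0.05 there were 3 of the 10, Nfatc1 with a positive difference and Ppp3cb and Rcan2 with negative ones, where 14.2% of all genes lay below it (5.05% with higher and 9.17% with lower values in bKO). The log2 differences of bKO minus WT ran from -0.24 for Rcan2 to 0.23 for Nfatc1, with a median of 0.04, against a median of -0.01 over all genes. The 95% intervals of all 10 stayed between -0.47 and 0.53 on the log2(FPKM + 1) scale, which understates differences of low genes such as Camk1d. The estimates themselves, without intervals, lay between -0.37 and 0.42 for 95% of all genes tested, against -0.24 to 0.23 for the 10.

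**Figure D1:**
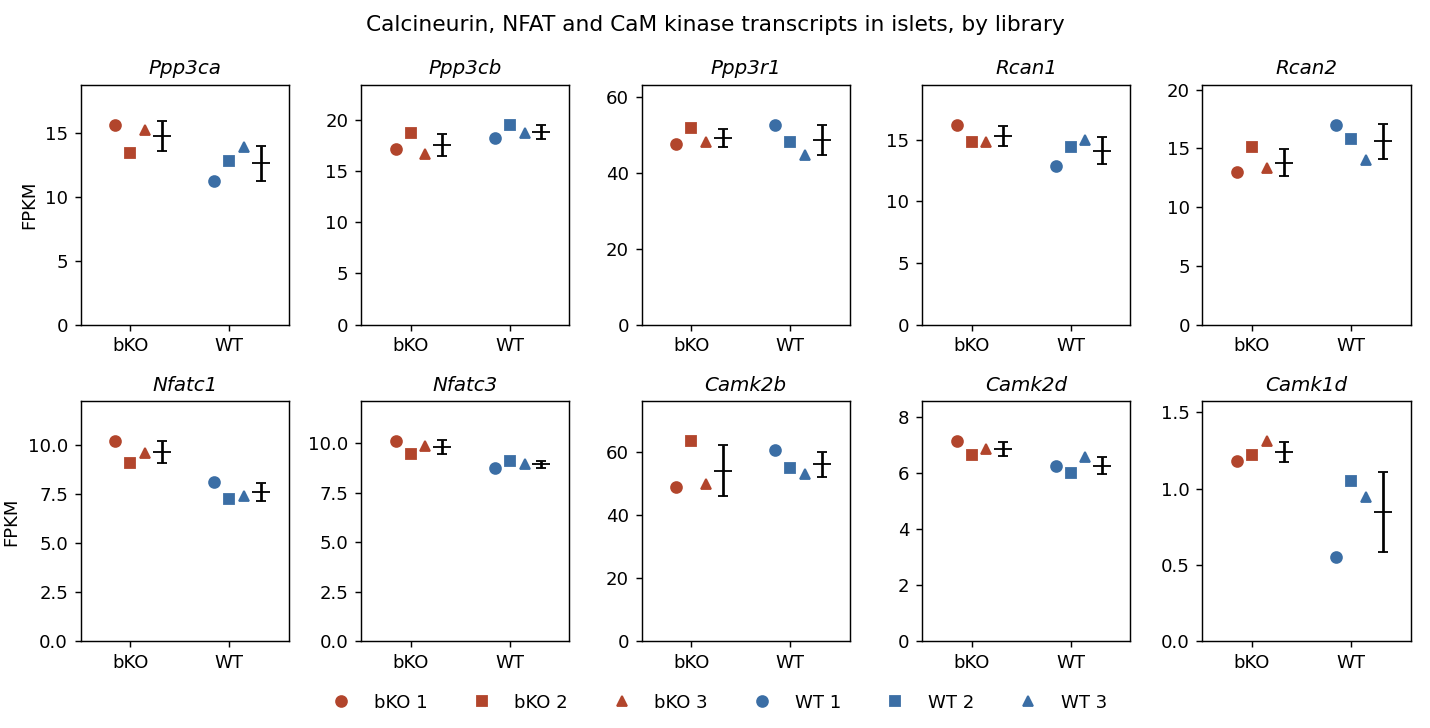
FPKM of each of the 10 genes in the 3 bKO libraries (left in each panel) and the 3 WT libraries (right), with the mean and SD of each group as a black bar; every axis starts at 0. Nfatc1, Nfatc3, Camk2d and Camk1d do not overlap between the groups on this scale, and the other genes do.

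**Figure D2:**
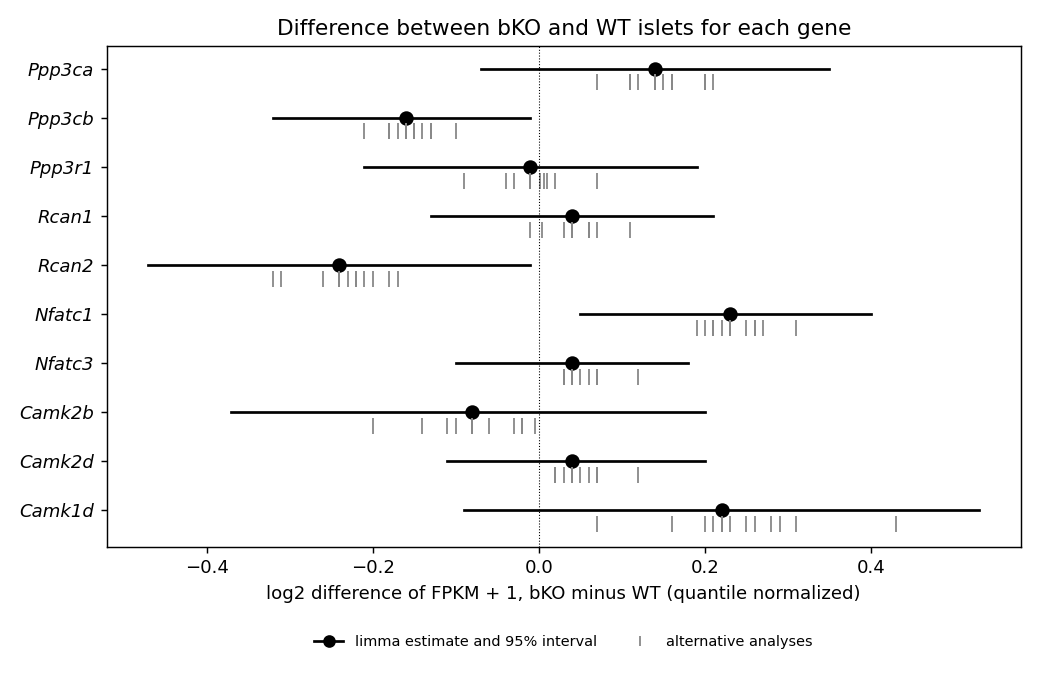
Log2 difference of FPKM + 1 between bKO and WT after quantile normalization, with its 95% interval from limma (black) and the values of 14 alternative analyses (grey ticks) for each gene. The estimates run from -0.24 (Rcan2) to 0.23 (Nfatc1), and the grey ticks of Ppp3r1 and Rcan1 lie on both sides of 0.

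The expression level set these genes apart far more than the genotype. FPKM are scaled by transcript length, so levels can be set side by side. Camk2b was the most abundant, at 49.1 to 63.4 FPKM over the 6 libraries, and its range overlapped that of Ppp3r1, at 44.8 to 52.7. Ppp3cb came next at 16.7 to 19.5 FPKM, then Rcan1 at 12.9 to 16.2, Rcan2 at 13.0 to 17.0 and Ppp3ca at 11.2 to 15.6. Rcan1, Rcan2 and Ppp3ca overlapped one another, and Rcan2 alone of these 3 reached into the range of Ppp3cb. Below them lay Nfatc3 at 8.76 to 10.1 FPKM and Nfatc1 at 7.24 to 10.2, which overlapped, and Camk2d at 6.0 to 7.14, which lay below both. Camk1d, at 0.55 to 1.31 FPKM, was the lowest: its mean level was above that of 21.1% of all genes tested, and that of Camk2b above 91.9%.

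Among the calcineurin subunits, the alpha and beta catalytic genes had differences of opposite sign. Ppp3ca was at 15.6, 13.4 and 15.2 FPKM in bKO replicates 1, 2 and 3, against 11.2, 12.8 and 13.9 in WT replicates 1, 2 and 3. The high values were those of bKO replicates 1 and 3, and bKO replicate 2 lay within the WT range, so that the groups overlapped. Its means were 14.7 ± 1.17 FPKM in bKO and 12.6 ± 1.36 in WT (SD, n = 3 each), with a log2 difference of 0.14 (SE 0.09, limma adjusted p = 0.505), which was 0.07 without WT replicate 1. Ppp3cb was at 17.1, 18.7 and 16.7 FPKM in bKO islets, against 18.2, 19.5 and 18.7 in WT. Here bKO replicates 1 and 3 were the lowest of the 6 libraries and bKO replicate 2 lay among the WT values. The means were 17.5 ± 1.07 and 18.8 ± 0.653 FPKM, and the log2 difference was -0.16 (SE 0.06, 95% interval -0.32 to -0.01, limma adjusted p = 0.317). After quantile normalization the bKO libraries all lay below the WT libraries for Ppp3cb. Ppp3cc, the gamma catalytic gene and no member of the set, was at 7.09 to 7.87 FPKM in bKO and 6.01 to 7.9 in WT.

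The 3 catalytic genes together gave nearly the same total in each group, 39.8, 40.0 and 39.5 FPKM in bKO islets, against 35.3, 39.5 and 40.4 in WT. Within that total Ppp3ca took 39.1%, 33.5% and 38.5% in bKO and 31.6%, 32.4% and 34.3% in WT. The ratio of Ppp3ca to Ppp3cb, which does not depend on how libraries are scaled, was 0.909, 0.716 and 0.912 in bKO and 0.614, 0.657 and 0.742 in WT. Again bKO replicate 2 fell inside the WT range and the other 2 bKO libraries above it. Ppp3r1, a gene of the B subunit that every calcineurin dimer needs, was at 47.6, 51.9 and 48.1 FPKM in bKO and 52.7, 48.2 and 44.8 in WT. All 3 bKO values lay within the WT range, the log2 difference was -0.01 (95% interval -0.21 to 0.19), and its sign turned without quantile normalization (0.02). Summed catalytic transcripts stood at 0.771 to 0.837 of Ppp3r1 in bKO and at 0.671 to 0.902 in WT.

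Rcan1 is one of the transcripts of this group that NFAT is known to drive, and the reference holds 2 start sites for it that differ in the motifs such factors bind. The windows run from 250 bases before to 50 after each start and are from RefSeq on build GRCm38.p6, minus strand; coordinates are of that build, whereas the deposited values were made on mm9. Capitals mark GGAAA (the core bound by NFAT), TGACGTCA (the cAMP response element, bound by CREB) and TGACTCA (bound by AP-1, a partner of NFAT), on either strand. The deposited table gives a single value for the 2 Rcan1 transcripts it lists, so the use of one start or the other could not be measured.
Rcan1 upstream start, chr16:92466120-92466419: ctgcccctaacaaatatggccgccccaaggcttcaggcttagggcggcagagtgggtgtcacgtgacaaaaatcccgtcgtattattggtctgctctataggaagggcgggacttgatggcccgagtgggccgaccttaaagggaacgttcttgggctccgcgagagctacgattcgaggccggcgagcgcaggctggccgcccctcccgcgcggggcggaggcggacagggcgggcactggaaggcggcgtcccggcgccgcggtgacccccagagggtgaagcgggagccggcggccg
Rcan1 downstream start, chr16:92400029-92400328: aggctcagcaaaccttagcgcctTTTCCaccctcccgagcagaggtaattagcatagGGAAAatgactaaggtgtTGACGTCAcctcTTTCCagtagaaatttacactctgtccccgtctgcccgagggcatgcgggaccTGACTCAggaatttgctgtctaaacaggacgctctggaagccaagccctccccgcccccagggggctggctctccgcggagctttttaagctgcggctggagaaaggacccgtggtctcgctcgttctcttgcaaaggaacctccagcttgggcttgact

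The upstream window held 0 matches to any of the 3 motifs, and the downstream window held 3 of GGAAA, 1 of TGACGTCA and 1 of TGACTCA. Over all 32851 windows in the reference, 61.3% held GGAAA, 1.79% held TGACGTCA and 5.2% held TGACTCA, and 9 windows (0.0274%) held all 3. For 8 of the 10 genes a window was found, 13 windows in all. Ppp3cb had 4 matches to GGAAA, a number reached or passed by 2.65% of all windows, and Rcan2 had 2 in one of its windows and a TGACTCA in another. Camk1d, Camk2d and Nfatc3 had at most 1 GGAAA in a window, and Camk2b and Ppp3r1 had 0. A match describes the letters only and does not show that a factor binds there.

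Rcan1 was at 16.2, 14.8 and 14.8 FPKM in bKO islets, against 12.9, 14.4 and 15.0 in WT. The bKO replicate 1 value was the highest and the WT replicate 1 value the lowest of the 6, and the other 4 libraries lay between 14.4 and 15.0. The means were 15.3 ± 0.786 and 14.1 ± 1.08 FPKM, and the log2 difference was 0.04 (SE 0.07, 95% interval -0.13 to 0.21, limma adjusted p = 0.804). It became -0.01 when WT replicate 1 was left out. Rcan2, which binds calcineurin through the same kind of motif, had the most negative difference of the 10. It was at 13.0, 15.1 and 13.3 FPKM in bKO and 17.0, 15.8 and 14.0 in WT, where WT replicate 3 lay below bKO replicate 2 and the groups overlapped. The log2 difference was -0.24 (SE 0.1, 95% interval -0.47 to -0.01, limma adjusted p = 0.337). As a share of the 3 Rcan genes, Rcan2 was at 15.2%, 15.9% and 15.9% in bKO and 18.5%, 18.0% and 16.8% in WT, where the groups did not overlap. Rcan1 stood at 1.25, 0.98 and 1.12 times Rcan2 in bKO and at 0.757, 0.913 and 1.07 times in WT. Rcan3, no member, was the most abundant Rcan gene in every library, at 55.3 to 64.9 FPKM in bKO and 54.6 to 62.1 in WT, or 65.3% to 68.4% of the family.

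Across the 6 libraries Rcan1 varied little, with its highest library 1.26 times its lowest. The pattern nearest to it among 12654 other genes with a mean of at least 1 FPKM was that of Bin3, at a Euclidean distance of 0.044 between centred log2 values, followed by Slc19a1 at 0.045 and 2810004N23Rik at 0.048. Bin3 was at 13.4 to 15.0 FPKM in bKO and 11.8 to 13.9 in WT. Like Rcan1 it was highest in bKO replicate 1 and lowest in WT replicate 1. Bin3 was picked for its likeness over these same libraries, so the shared order follows from that choice and shows no link between the genes.

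**Figure D3:**
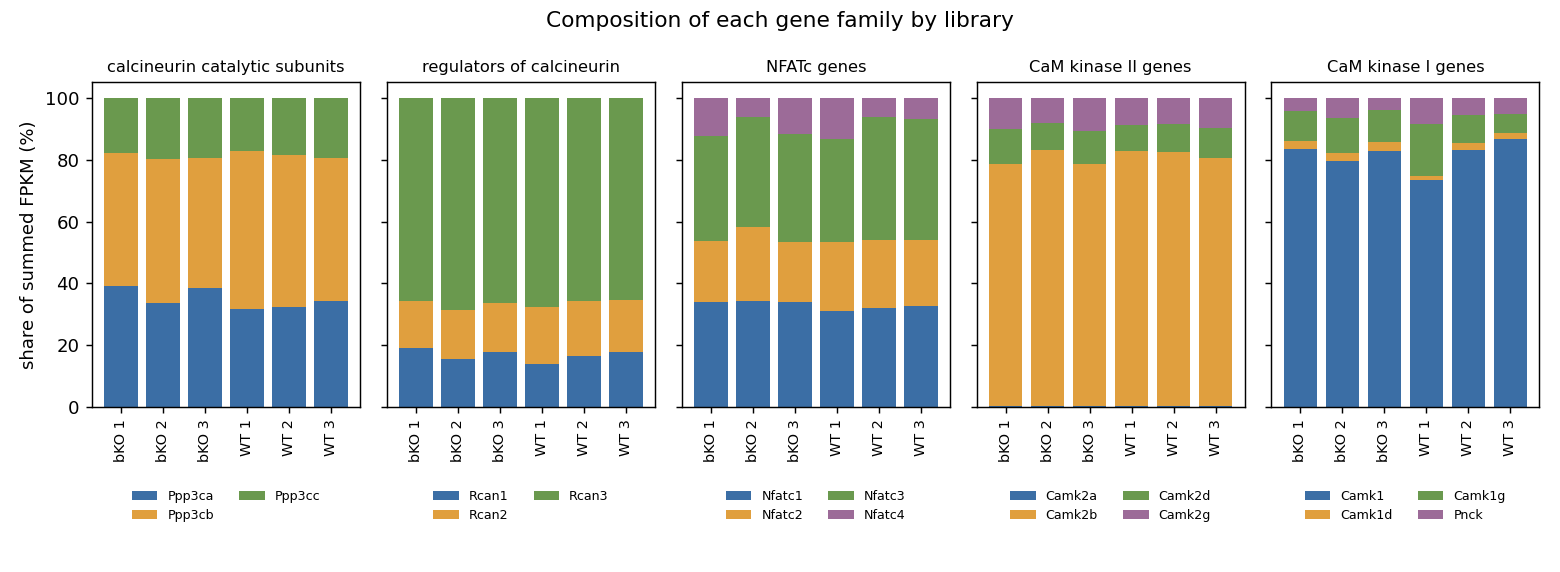
Share of summed FPKM (%) that each gene takes within its family, as stacked bars for the 3 bKO libraries (left) and the 3 WT libraries (right). Camk2b takes 78.4% to 83.2% of the CaM kinase II genes and Rcan3 65.3% to 68.4% of the Rcan genes, while no catalytic subunit of calcineurin holds more than 51.4%.

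Of the transcription factors, Nfatc1 had the largest positive difference of the 10 genes and separated the groups on both scales. It was at 10.2, 9.1 and 9.61 FPKM in bKO replicates 1, 2 and 3, against 8.14, 7.24 and 7.44 in WT replicates 1, 2 and 3. Every bKO library lay above every WT library, also after quantile normalization. The means were 9.65 ± 0.571 and 7.61 ± 0.472 FPKM (1.27-fold), and the log2 difference was 0.23 (SE 0.07, 95% interval 0.05 to 0.4, unadjusted p = 0.0186, limma adjusted p = 0.25). It lay between 0.19 and 0.31 over the alternatives, with adjusted p between 0.152 and 0.705. Within the summed FPKM of the 4 NFATc genes, Nfatc1 took 34.1% ± 0.119 in bKO (SD, n = 3) and 31.9% ± 0.754 in WT (SD, n = 3), without overlap. This share is made from the same Nfatc1 values and is no separate support. By p Nfatc1 ranked 1183 among the 15962 genes tested.

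Nfatc3, which like Nfatc1 responds to calcineurin, was at 10.1, 9.46 and 9.86 FPKM in bKO and 8.76, 9.11 and 8.95 in WT. The groups did not overlap on deposited FPKM, and they did after quantile normalization, where the log2 difference was 0.04 (95% interval -0.1 to 0.18, limma adjusted p = 0.745). On deposited FPKM 4 of the 10 genes, these 2 NFAT genes with Camk2d and Camk1d, lay higher in all bKO libraries and 0 lay lower. Of all genes tested, 21.8% were without overlap on that scale, 15.3% higher and 6.48% lower. After quantile normalization Nfatc1 lay higher and Ppp3cb lower without overlap, where 19.7% of all genes were without overlap, 7.1% higher and 12.6% lower. Over the whole table, more of the separated genes were thus higher in bKO on deposited FPKM and lower in bKO after quantile normalization.

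Among the other NFAT genes, Nfatc2 was at 5.92, 6.39 and 5.5 FPKM in bKO and 5.77, 5.0 and 4.84 in WT. Nfat5, which answers osmotic stress and lacks the calcineurin-binding region, was at 11.6, 12.2 and 11.6 FPKM in bKO islets, against 9.98, 10.3 and 9.38 in WT. Its groups did not overlap, with a log2 difference of 0.15 (unadjusted p = 0.0478, limma adjusted p = 0.346). Nfatc4 was at 3.75, 1.6 and 3.26 FPKM in bKO and 3.45, 1.38 and 1.53 in WT, high in bKO replicates 1 and 3 and WT replicate 1. The same 3 libraries had the highest sums of 9 stellate cell and pericyte markers, with 484, 253 and 475 FPKM in bKO and 381, 153 and 150 in WT. The part of these cells in the Nfatc4 values was not tested. All 5 NFAT family genes had positive differences, with a median of 0.15, and 0 of 5 were called.

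Nfatc1 is also a gene of endothelial cells, and their markers moved with the groups. All 10 endothelial markers lay higher in every bKO library than in every WT library on deposited FPKM, as 15.3% of all genes tested did, and their summed FPKM was 255, 263 and 254 in bKO against 175, 184 and 191 in WT. Of these markers Cd34 and Egfl7 were called higher (limma adjusted p = 0.0306 for each), calls that share the dependence on bKO replicates 1 and 3 given for the whole table. Leukocyte markers, of which 6 were measured, summed to 42.5 to 50.3 FPKM in bKO and 54.2 to 76.0 in WT. The part of endothelial cells in the Nfatc1 difference was not tested.

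**Figure D4:**
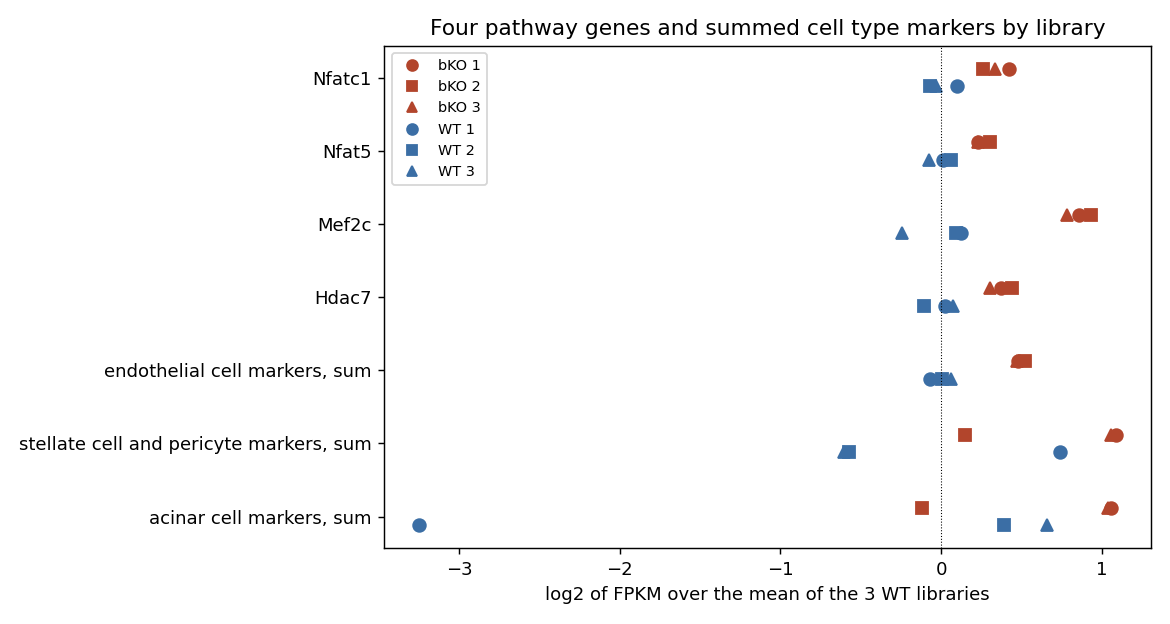
Log2 of FPKM relative to the mean of the 3 WT libraries for Nfatc1, Nfat5, Mef2c and Hdac7 and for the summed markers of endothelial, stellate and acinar cells; each symbol is a library, bKO in red above WT in blue. The 4 genes and the endothelial sum (254 to 263 FPKM in bKO, 175 to 191 in WT) separate the groups, and the stellate and acinar sums do not.

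CaM kinase II is a ring of subunits that stays active after a calcium pulse by phosphorylating itself, and in these islets Camk2b supplied most of its transcripts. Camk2b was at 49.1, 63.4 and 49.8 FPKM in bKO islets, against 60.6, 54.9 and 53.0 in WT. The highest library was bKO replicate 2 and the lowest were bKO replicates 1 and 3, so that the bKO values enclosed the WT values. The means were 54.1 ± 8.07 and 56.2 ± 3.97 FPKM, with a log2 difference of -0.08 (95% interval -0.37 to 0.2, limma adjusted p = 0.763). The difference was -0.2 without bKO replicate 2 and -0.005 without WT replicate 1. Camk2d, the delta subunit, was at 7.14, 6.65 and 6.86 FPKM in bKO and 6.26, 6.0 and 6.58 in WT. These values did not overlap, by 6.65 against 6.58 at the closest, and they overlapped after quantile normalization (log2 difference 0.04, 95% interval -0.11 to 0.2, limma adjusted p = 0.77). Camk2g was at 6.09 to 6.79 FPKM in bKO and 5.68 to 6.35 in WT, and Camk2a, the main form of forebrain neurons, was at 0.0891 to 0.147 and 0.104 to 0.109.

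Camk1d, a CaM kinase I gene, had the largest fold of means and rested on few fragments. It was at 1.18, 1.22 and 1.31 FPKM in bKO islets, against 0.55, 1.05 and 0.944 in WT. All bKO libraries lay above all WT libraries, and WT replicate 1 stood well below the other 5. At the estimated depths these values correspond to 34.1 to 48.2 fragments per kilobase of transcript in bKO and 12.7 to 28.1 in WT. The means were 1.24 ± 0.0671 and 0.847 ± 0.262 FPKM (1.46-fold), with a log2 difference of 0.22 on the scale of FPKM + 1 (SE 0.13, limma adjusted p = 0.478). Without WT replicate 1, the library with the low acinar sum, the difference was 0.07, and with a pseudocount of 0.1 it was 0.43. Camk1 was the main gene of its family, at 36.3 to 41.1 FPKM in bKO and 30.9 to 44.4 in WT, and Camk1d made up 2.42% to 2.68% of the family in bKO and 1.31% to 2.34% in WT. Camk1g was at 4.81 to 5.26 FPKM in bKO and 3.25 to 7.05 in WT, and Camk4 at 0.115 to 0.153 and 0.11 to 0.153.

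The wider pathway was read from 8 lists. Of 59 measured genes in the 6 lists of pathway components, the 10 genes included, 0 were called in either direction, 5 had positive and 5 negative differences at an unadjusted p below 0.05, and the median difference was 0.01. Over all genes tested 5.05% had higher and 9.17% lower values in bKO at that p. On deposited FPKM 17 of the 59 lay higher and 1 lower in bKO without overlap, against 15.3% and 6.48% of all genes. After quantile normalization 9 lay higher and 4 lower without overlap, against 7.1% and 12.6% of all genes. Calm2 and Calm3 encode calmodulin, the calcium sensor shared by calcineurin and the kinases. Calm2 was at 245 to 251 FPKM in bKO and 231 to 258 in WT, and Calm3 at 144 to 155 FPKM in bKO and 144 to 149 in WT. Each gene overlapped between the groups. Fkbp1a and Ppia encode FKBP12 and cyclophilin A, the proteins through which tacrolimus and cyclosporin block calcineurin. Fkbp1a had 150 to 156 FPKM in bKO islets, against 140 to 147 FPKM in WT (log2 difference 0.05, limma adjusted p = 0.669). Ppia had 1206 to 1261 FPKM in bKO islets, against 1231 to 1300 FPKM in WT (log2 difference -0.09, limma adjusted p = 0.64).

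Of 10 genes that phosphorylate NFAT or carry it out of the nucleus or bind it, 7 had positive differences, with a median of 0.09. The casein kinases Csnk1e and Csnk1d, which help keep NFAT in the cytoplasm, were named for their small p and did not overlap between the groups. On deposited FPKM 5 of the 10 genes lay higher in bKO without overlap, as did 15.3% of all genes tested. After quantile normalization 3 of the 10 did, against 7.1% of all genes. Csnk1e was at 21.3, 18.9 and 21.4 FPKM in bKO and 16.8, 16.6 and 18.0 in WT (log2 difference 0.18, limma adjusted p = 0.304). Csnk1d was at 52.2 to 52.9 FPKM in bKO and 44.8 to 51.5 in WT (0.11, limma adjusted p = 0.39). The kinase Dyrk2 and the exportin Xpo1 were at 11.4 to 11.8 and 20.8 to 22.2 FPKM in bKO islets, against 8.11 to 11.1 and 21.0 to 23.6 in WT.

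Of 13 measured CaM kinases and their inhibitors 0 were called and 8 had negative differences, as did 8457 of the 15962 genes tested. Among these 8, 3 had an unadjusted limma p below 0.05: Camkk1, Camk2n2 and Pnck. Over all genes tested, 9.17% had lower values in bKO at that p. Camkk1, which phosphorylates and activates CaM kinases I and IV, was at 1.0, 0.851 and 0.875 FPKM in bKO islets, against 1.48, 1.21 and 1.06 in WT. The groups did not overlap, and the log2 difference of -0.3 had an unadjusted p of 0.00352 and a limma adjusted p of 0.139. Camkk1 is a low gene like Camk1d, and with a pseudocount of 0.1 its difference was -0.53 (limma adjusted p = 0.17). Camk2n2, an inhibitor protein of CaM kinase II, was at 20.8, 22.6 and 25.4 FPKM in bKO and 30.2, 24.7 and 30.3 in WT (log2 difference -0.36, limma adjusted p = 0.218). Pnck, a CaM kinase I gene of brain, was at 1.94 to 2.88 FPKM in bKO and 2.49 to 3.56 in WT (log2 difference -0.36, limma adjusted p = 0.351).

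Further downstream, in the list of CRTC and CREB cofactors, MEF2 factors and class IIa deacetylases, 0 of 16 were called and Mef2c came closest. Mef2c, a transcription factor released from class IIa deacetylases when CaM kinases phosphorylate them, was at 2.73, 2.87 and 2.59 FPKM in bKO islets, against 1.64, 1.6 and 1.27 in WT. Its groups did not overlap, and the log2 difference was 0.48 (SE 0.08, unadjusted p = 0.000836, limma adjusted p = 0.0968). Hdac7, one of those deacetylases, was at 9.03, 9.45 and 8.62 FPKM in bKO and 7.09, 6.47 and 7.34 in WT (log2 difference 0.26, limma adjusted p = 0.191). Mef2c and Hdac7 are known as endothelial genes too, and the endothelial sums given for Nfatc1 apply to them, with their part again not tested. Mef2a was at 15.0 to 16.0 FPKM in bKO and 13.0 to 14.1 in WT (limma adjusted p = 0.478), and Crtc3 at 8.73 to 9.12 and 8.66 to 9.43 (0.446).

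**Figure D5:**
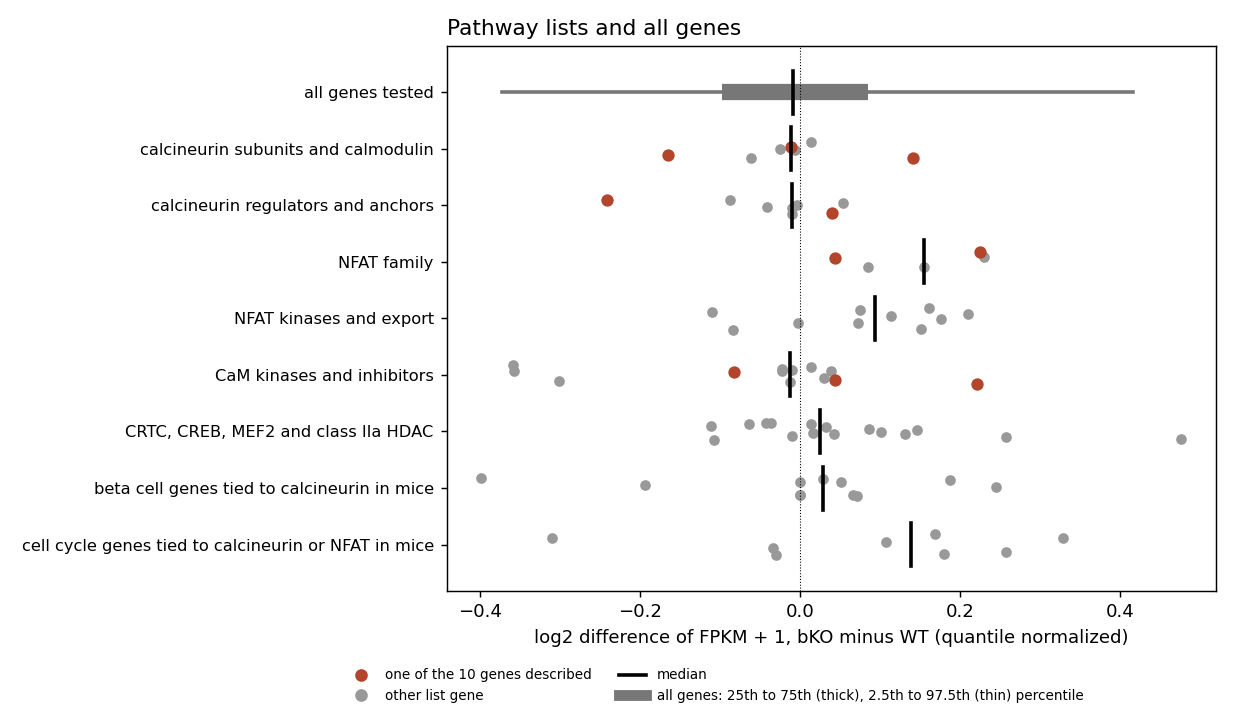
Log2 difference of FPKM + 1, bKO minus WT after quantile normalization, for each gene of 8 lists (the 10 genes described in red, others in grey), with list medians in black and, in the top row, percentiles of all genes tested. All points lie between -0.4 and 0.48, and the medians run from -0.01 to 0.15, against -0.01 for all genes.

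The remaining lists held genes that calcineurin or NFAT has been linked to in mouse beta cells. Of 11 beta cell genes 0 were called. Quantile normalization fixes Ins1, Ins2 and Iapp at a difference of 0, being the most abundant transcripts. On deposited FPKM 2 of the 11, Ins1 and Iapp, were lower in every bKO library than in every WT library. Of all genes tested, 6.48% were lower in that way. Mafa, a factor of mature beta cells, was at 58.6, 92.0 and 67.8 FPKM in bKO and 48.2, 83.9 and 51.1 in WT. Slc2a2, the glucose transporter, was at 15.3, 20.4 and 15.7 FPKM in bKO and 22.1, 29.2 and 15.6 in WT. Both overlapped between the groups (limma adjusted p = 0.669 and 0.478), and so did Irs2 (0.667) and Hnf4a (0.675). Of 8 cell cycle genes 0 were called. Ccnd1, a D-type cyclin, was at 37.9, 48.0 and 36.7 FPKM in bKO and 49.6, 49.9 and 48.3 in WT (log2 difference -0.31, limma adjusted p = 0.275). Myc was at 10.5 to 12.8 FPKM in bKO and 8.38 to 10.4 in WT (log2 difference 0.26, limma adjusted p = 0.329). Neither overlapped between the groups on deposited FPKM, and both did after quantile normalization. Ccnb1, a cyclin of dividing cells, was at 2.77, 1.43 and 2.73 FPKM in bKO and 2.66, 0.715 and 1.28 in WT. Ccna2, another, was at 3.02, 1.99 and 3.03 FPKM in bKO and 2.73, 1.77 and 1.68 in WT. Both were highest in the 3 libraries with the highest stellate sums, and the part of those cells was not tested.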

How the data were processed

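Per the labels and the design text, a service provider trimmed the reads, mapped them to the mouse genome (build mm9, per the submitters' processing notes) and made FPKM with Cufflinks; the sources used here do not give the aligner or versions. The deposited FPKM values are linear and not quantile normalized, and unmapped sample columns numbered 0. The table held 16547 named genes, and 2 rows without a gene name were left out. A further 585 genes, listed at 0 in at least 1 library, were not tested. Values were set to log2(FPKM + 1), which understates changes of low genes, quantile normalized as the design text describes, and tested across all 15962 genes with limma 3.58.1 in R 4.3.3 (lmFit, eBayes with trend, two-sided, Benjamini-Hochberg over all genes, threshold 0.05). Means, SD and overlaps are of deposited FPKM unless stated. Depth was estimated from steps between FPKM values below 0.3, of which 59.1% to 69.1% were within 0.1 of whole fragments; it is an estimate.

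The 10 genes, the 8 pathway lists and the marker lists were chosen with earlier results of these data known. The rule names the 10 genes, Kcnj11, up to 4 further genes of each list with the smallest p and a mean of at least 1 FPKM, family mates for their levels, and the 3 genes most like Rcan1; Bin3 stands for these, and Ins1, Iapp, Cd34 and Egfl7 were named after their values were seen. Alternatives were a pseudocount of 0.1, other scaling and filters, eBayes without trend, a replicate block, leaving out each library and averaging bKO replicates 1 and 3, the last of these chosen after seeing the data. The fit was first run on simulated data in which all libraries were independent. Replicates 1 and 3 of bKO were far closer than other pairs, so that run does not show how p-values behave in these data. Tables and plots were made in Python 3.11.15 with pandas 2.3.3, numpy 2.4.6 and matplotlib 3.10.9.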

Additional observations from a re-analysis of the deposited data

How the results depend on the processing

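No alternative called any of the 10 genes, and the smallest limma adjusted p over 14 alternatives was 0.152, for Nfatc1 without quantile normalization. For 8 of the 10 the sign held in every alternative. The log2 difference of Ppp3r1 was 0.02 without quantile normalization and 0.006 with bKO replicates 1 and 3 averaged, and ran from -0.09 to 0.07 as libraries were left out in turn; that of Rcan1 ran from -0.01 to 0.07. Without quantile normalization it was 0.006 for Calm3, 0.04 for Calm2, 0.07 for Cabin1 and 0.05 for Camk2g, each negative in the reported analysis; with median of ratios scaling it was 0.03 for Cabin1 and 0.002 for Camk2g, and with bKO replicates 1 and 3 averaged 0.008 for Calm2. As libraries were left out in turn, it ran from -0.06 to 0.02 for Calm3, from -0.09 to 0.09 for Ppp3cc and for Calm2 from -0.06 to 0.09. In the same runs it spanned -0.05 to 0.02 for Cabin1, -0.07 to 0.003 for Camk2g and -0.05 to 0.33 for Hnf4a. The count of called genes, 31, was 0 with the replicate block (2343 genes at an unadjusted limma p below 0.05), 0 with bKO replicates 1 and 3 averaged (1233 genes), and 0 to 57 as libraries were left out in turn; the cause was not tested. It was 57 without WT replicate 1 and 0 without bKO replicate 1 (1232 genes at an unadjusted p below 0.05) or 3 (1213 genes). Of the called genes 67.7% were lower in bKO as reported and 51.3% without quantile normalization. The sources used here do not say that replicate numbers pair the samples. Deviations from the group means correlated at -0.2, 0.07 and 0.3 for same-numbered libraries, and bKO replicate 1 was closest to WT replicate 3 (0.31). With 3 libraries per group, of which bKO replicates 1 and 3 were nearly alike, these correlations cannot decide whether samples were paired. In the replicate block fit 0 of the 10 genes were called. Depth limits Camk1d most, at 12.7 to 48.2 fragments per kilobase.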
